A study of Bos taurus with 9 samples.

Results

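Muscle-rich and muscle-poor rectal biopsies were the 2 sides of a division of the 9 RNA-Seq libraries of this study. The sides were chosen by measured values. For each library a muscle score was computed, the mean log2(CPM + 0.5) of 10 smooth muscle genes, where CPM are the counts of a gene scaled to a common library total. The 5 libraries with a score above 8.6 (steers 108, 152, 165, 294 and 299) are called muscle-rich and the 4 below it (steers 242, 274, 287 and 310) muscle-poor. The libraries nearest to the threshold were steer 108 at 9.14 and steer 310 at 8.09.

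The study compared whole rectal tissue of British x Continental feedlot steers on a barley-grain finishing diet, 5 super-shedders (SS) of Escherichia coli O157:H7 and 4 non-shedders (NS), pen-mates that were negative for it, with 1 library per steer. Tissue was taken after slaughter a little way proximal to the recto-anal junction, from a pair of biopsies per steer that were frozen and powdered. The libraries were stranded, depleted of rRNA and sequenced from both ends, and the reads were mapped to the bovine genome UMD3.1. The muscle-rich side held NS 108, 152 and 165 and SS 294 and 299, and the muscle-poor side held NS 242 and SS 274, 287 and 310, so the division cuts across the labels but is not balanced over them.

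The wall of the rectum has an inner mucosa of epithelium, connective tissue and lymphoid follicles, a thin muscle sheet beneath it, a submucosa and thick outer layers of smooth muscle that move the feces. Smooth muscle cells contract when calcium activates myosin light chain kinase, and myosin then pulls on thin filaments of actin and tropomyosin that are anchored in dense bodies inside the cell and in dense plaques at its membrane. A network of desmin filaments links these anchors.

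The recovered read totals ran from 5412523 to 11807195 in the muscle-poor and from 7101669 to 12278503 in the muscle-rich libraries, so depth overlapped between the sides, with steer 274 the shallowest. Between 17209 and 18387 genes per library had a value above 0. A gene with no read could still have had a level of 3 reads, which is 0.244 CPM in the deepest and 0.554 CPM in the shallowest library, for counting error only. In whole tissue, fewer cells of a type and less RNA per cell cannot be told apart, and a CPM value is a share of its library, so a rise in some genes lowers the share of the others.

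All values below are given in the order of the score, which was 4.99, 6.79, 7.44 and 8.09 in steers 274, 287, 242 and 310 and 9.14, 9.25, 9.83, 10.65 and 11.46 in steers 108, 152, 165, 299 and 294. The score spanned 6.47 log2 units, and the gap between the sides was 1.06. The 10 score genes took 0.0453, 0.190, 0.283 and 0.455% of the reads in the muscle-poor libraries and 1.06, 1.07, 1.60, 2.85 and 5.56% in the muscle-rich ones. The score thus ran as a gradient with SS at both ends, from 4.99 to 11.46 in SS and from 7.44 to 9.83 in NS.

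**Figure D1:**
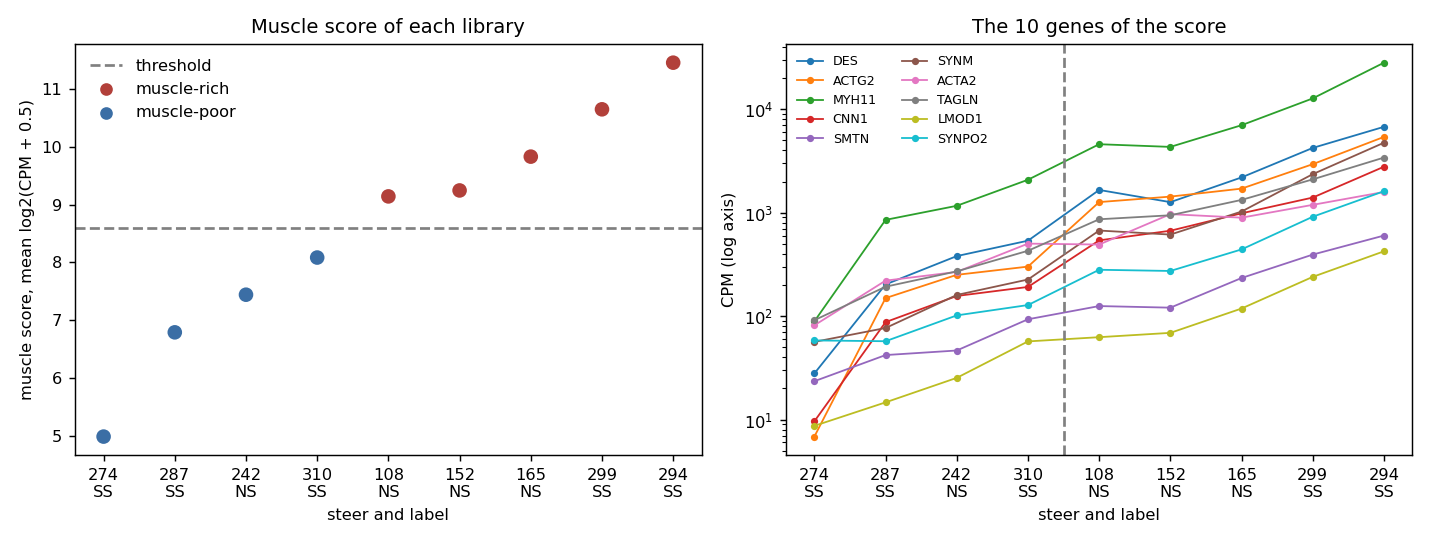
Left, the muscle score of each library (mean log2(CPM + 0.5) of 10 genes) in rising order, with the threshold of 8.6 as a dashed line. Right, the CPM of each score gene in the same libraries on a log axis. SS 274 was lowest at 4.99 and SS 294 highest at 11.46.

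The defining markers of smooth muscle were present in all 9 libraries, so the names of the sides describe an amount. These 10 genes made the division, and their values are a description with no test. MYH11, the heavy chain of smooth muscle myosin, was at 89.1, 853, 1167 and 2084 CPM in the muscle-poor and 4597, 4332, 7021, 12755 and 28258 CPM in the muscle-rich libraries. DES, the desmin of the intermediate filaments, was at 27.9, 203, 381 and 536 CPM against 1661, 1266, 2196, 4234 and 6775 CPM. ACTG2, the gamma actin of the gut wall muscle, was at 6.84, 149, 251 and 301 CPM against 1267, 1432, 1710.4, 2948 and 5409.8 CPM. Steer 274 was the lowest and steer 294 the highest library for these markers, and the ratio of highest to lowest library was 317 for MYH11, 243 for DES and 791 for ACTG2.

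The other score genes ranged less widely than ACTG2 and MYH11. Their ratio of the highest to the lowest library was 290 for CNN1 (calponin, an actin-binding regulator of contraction), 84.4 for SYNM (synemin, which joins desmin filaments), 48.8 for LMOD1 (leiomodin, which starts actin filaments), 37.4 for TAGLN (transgelin), 28.2 for SYNPO2, 25.6 for SMTN (smoothelin) and 19.5 for ACTA2. In 9 of the 10 genes every muscle-rich library was above every muscle-poor one. The exception was ACTA2, the alpha actin that vessel walls and myofibroblasts also make, at 81.5, 220.4, 268 and 502 CPM against 492, 969, 896, 1192 and 1587 CPM, where the muscle-poor steer 310 was above the muscle-rich steer 108.

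The comparison of 5 with 4 libraries over the other genes asked which transcripts follow the muscle content of a biopsy. Because the sides were drawn from expression in the same libraries, an adjusted p says how closely a gene follows the division and tests no condition of the steers. Genes that reached 0.5 CPM in 4 or more libraries were tested with limma on log2(CPM + 0.5), and a gene was called at an adjusted p below 0.05 and a log2 difference above 1 in size. None passed: 0 of 15400 genes were called (0%). An unadjusted p under 0.05 was reached by 691 genes (559 higher and 132 lower in the muscle-rich libraries). With no difference a share of 0.05 of all genes would reach it, so such counts are not read as a result. The edgeR quasi-likelihood test on the recovered reads also called 0 genes, with an unadjusted p under 0.05 for 847. DESeq2 on the same reads called 99 genes higher (0.678% of 14606 genes with an adjusted p) and 3 lower (0.0205%). With the score as a continuous term in place of the 2 sides, limma called 110 genes that rose by more than 1 log2 unit per SD of the score (0.714%) and 1 that fell by more than that (0.00649%). Of the genes called higher, 67 were called by both DESeq2 and the continuous term, which is 67 of 99 and 67 of 110.

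Each library counts fully in a plainer measure, whether all 5 muscle-rich libraries lay above or below all 4 muscle-poor ones. The muscle-rich libraries were all above in 248 genes (1.61% of 15400) and all below in 47 (0.305%). Single libraries moved both counts. Above it was 584 without steer 310, 558 without steer 242, 445 without steer 108 and 427 without steer 274, and below it was 72 to 231 without any library other than steer 294, the highest without steer 274. In the 4 muscle lists described next, 17 of 55 genes had every muscle-rich library above (17 to 25 when each library was left out), and none had every one below. The median log2 difference over all genes tested was 0.01, with 518 genes above 1 and 215 below -1. Most identifiers have no symbol here: 2040 of the tested genes had one, of which 35 were among the 248 and 3 among the 47. ENSBTAG00000015204, which had no symbol and was chosen after its values were seen, had the largest difference of all tested genes. Its values were 0, 0.423, 0.816 and 1.30 CPM in the muscle-poor libraries, with no read in steer 274, and 11.6, 7.09, 13.3, 21.4 and 63.4 CPM in the muscle-rich ones. With muscle-poor values this low, the size and rank of its difference depend on the value added before the log.

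The list of the contractile apparatus and thin filament held 15 tested genes, with a median log2 difference of 0.91, 14 above 0 and 6 with every muscle-rich library above, against 1.61% over all genes. These 6 were TPM2, TPM1, MYL9, DSTN, CALD1 and MUSTN1. TPM2, a tropomyosin that lies along the actin filament, had the largest difference, at 40.8, 122, 238 and 287 CPM against 734, 857, 1291, 1908 and 3292 CPM. It followed the order of the score library by library and the sides did not overlap. The log2 difference was 3.34 (SE 0.62, limma adjusted p = 0.352), and with the continuous score TPM2 rose by 2.02 log2 units per SD of the score (limma adjusted p = 9.26e-06), where 1 SD is 2.02 units. TPM1, a second tropomyosin, was at 93.5, 200.05, 205 and 407 CPM against 726, 822, 1217, 1810.1 and 3146 CPM, with a log2 difference of 2.74 (SE 0.51) and the same order of libraries. MYL9, the regulatory light chain that the kinase phosphorylates, was at 31.6, 63.9, 109.5 and 107 CPM against 258, 276, 363, 658 and 1012 CPM, with a log2 difference of 2.66 (SE 0.50).

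Other members of the list had smaller differences than TPM2, TPM1 and MYL9. CALD1, caldesmon on the thin filament, was at 259.6, 118, 197 and 207 CPM against 360.3, 413, 517, 895 and 1774 CPM, and the sides did not overlap although steer 274 was the highest of the muscle-poor libraries. MYL6, the essential light chain shared with non-muscle myosin, was at 455, 804, 541 and 652 CPM against 779, 949.6, 1198, 1183 and 1719 CPM, with a log2 difference of 0.91 (SE 0.27). Its sides overlapped through steers 287 and 108. The light chain MYL12A of non-muscle myosin had the lowest difference of the list, -0.07 (SE 0.51), and PPP1CB, the catalytic subunit of myosin phosphatase, had 0.31 (SE 0.27), both with overlapping sides. With the continuous score 4 of the 15 genes rose (TPM2, TPM1, MYL9 and DSTN, which takes actin filaments apart), against 0.714% over all genes, and DESeq2 called the 6 named above, against 0.678%.

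The list of dense plaque and adhesion genes held 25 tested genes, all with a difference above 0, with a median of 1.06. Every muscle-rich library was above in 10 of them, against 1.61% over all genes. PGM5, a protein of muscle adhesion plaques, had the largest difference, at 41.4, 77.8, 89.0 and 160.0 CPM against 228, 345, 451, 604 and 1082 CPM. It rose step by step in the order of the score, with a log2 difference of 2.51 (SE 0.49, limma adjusted p = 0.365) and 1.51 per SD of the score (limma adjusted p = 8.89e-05). FLNA, the filamin that crosslinks actin and ties it to integrins, was at 899, 959, 1622 and 2223 CPM against 3376, 2800.4, 4805, 9739 and 17647 CPM. Its log2 difference was 2.18 (SE 0.57), and steers 299 and 294 stood well above the other muscle-rich libraries.

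PRUNE2 was at 413, 158, 234 and 286 CPM against 509.6, 717, 960.4, 1546 and 3523 CPM, with a log2 difference of 2.14 (SE 0.53). Steer 274, the lowest by score, was the highest of the muscle-poor libraries for this gene, and PRUNE2 was not called with the continuous score (limma adjusted p = 0.105). Other members without overlap were PDLIM3 (log2 difference 2.41), FLNC (2.31), CSRP1 (2.09), TES (1.77), VCL (1.70), FHL1 (1.68) and LPP (1.18). Vinculin, the product of VCL, links integrin adhesions to actin, and most of the others are LIM domain proteins of the same plaques. The sides overlapped in the other 15 genes, with log2 differences from 0.09 for LIMS1 to 1.41 for FERMT2, among them 0.49 for ITGB1 and 0.20 for TLN1. DESeq2 called 9 of the 25 higher (0.678% over all its genes) and the continuous score called 5 (0.714% over all genes).

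**Figure D2:**
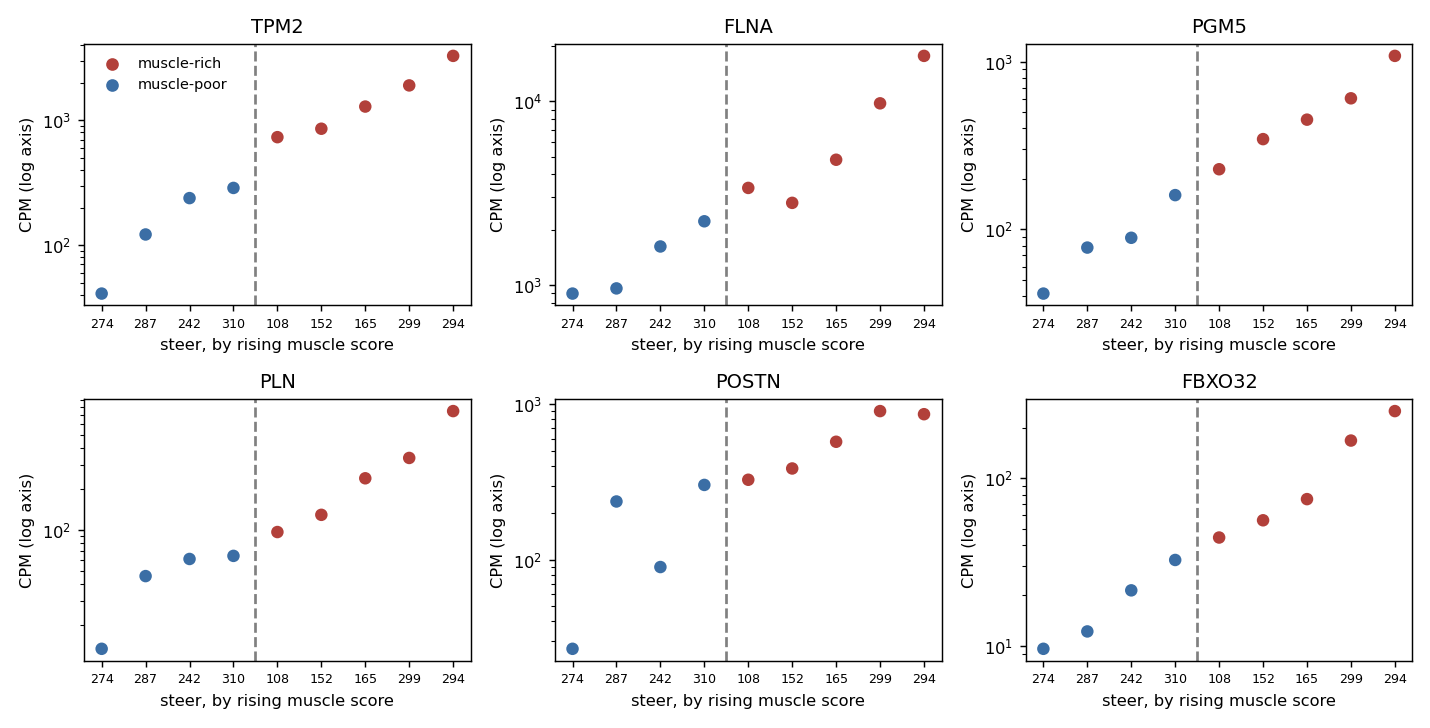
CPM (log axes) of 6 genes outside the score in the 9 libraries, in the order of the score, with the dashed line between muscle-poor and muscle-rich. In each gene the 5 muscle-rich libraries lie above the 4 muscle-poor ones. POSTN has its lowest values in steers 274 and 242, and FBXO32 rises from 9.61 to 252 CPM.

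Among genes of calcium handling and relaxation, 11 were tested with a median log2 difference of 0.46. Of these 11, 1 gene, PLN, had every muscle-rich library above, against 1.61% over all genes. PLN, phospholamban, which restrains the calcium pump of the sarcoplasmic reticulum, was at 13.5, 46.1, 61.5 and 64.8 CPM against 97.0, 129.7, 241, 339 and 749 CPM. Its log2 difference was 2.57 (SE 0.65, limma adjusted p = 0.596) and it rose by 1.68 per SD of the score (limma adjusted p = 0.000129). ATP2A2, the pump itself, was at 227, 379, 248 and 456 CPM against 429, 297, 301, 353 and 286 CPM, a log2 difference of 0.07 (SE 0.24). The inhibitor was called higher with the continuous score, as 0.714% of all genes were, and the pump was not called (limma adjusted p = 0.952). PDE5A, which breaks down the cGMP that relaxes smooth muscle, was at 217, 105, 79.0 and 180.3 CPM against 192, 230.1, 276, 407 and 877 CPM, with overlap through steer 274. KCNMA1, the pore of the calcium-activated potassium channel, had a log2 difference of 1.48 (SE 0.46) and overlapped through the same steer, and ITPR1, the calcium release channel, had 0.46 (SE 0.25).

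The small heat shock proteins, chaperones abundant in muscle, held 4 tested genes. None was without overlap, where 1.61% of all genes were above and 0.305% below without overlap. The median log2 difference of the list was 0.65. The median was 0.28 without steer 294 and 1.12 without steer 274. HSPB8 was at 72.6, 16.6, 23.5 and 46.4 CPM against 47.9, 67.2, 81.0, 152 and 308 CPM, and HSPB6 at 13.1, 2.88, 3.61 and 2.86 CPM against 3.58, 2.68, 5.35, 16.3 and 44.0 CPM. Steer 274 was again high for its score in this list. CRYAB was highest of all libraries in steer 274, at 94.8 CPM, and had a log2 difference of 0.17 (SE 0.73).

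Among genes with a symbol on no list, the 10 with the largest positive difference without overlap and the 3 that were lower without overlap are named by a fixed rule. FBXO32, a ubiquitin ligase subunit known from muscle wasting, was at 9.61, 12.2, 21.4 and 32.5 CPM against 44.3, 56.1, 75.1, 168 and 252 CPM, a log2 difference of 2.46 (SE 0.56). BAG2, a co-chaperone of HSP70, was nearly flat on the muscle-poor side, at 29.2, 32.8, 33.1 and 36.1 CPM, and ran from 79.0 to 438 CPM on the muscle-rich side, at 79.0, 102, 133, 204 and 438 CPM. CDC42EP3, an effector of the GTPase CDC42, was at 17.0, 26.3, 21.9 and 30.9 CPM against 50.1, 56.0, 101, 231 and 259 CPM. All 3 rose with the continuous score (limma adjusted p = 0.000585, 0.0088 and 0.00594) and were called by DESeq2. SLMAP, a membrane protein of muscle cells, had a log2 difference of 1.52 (SE 0.31), and the differences of RASSF3 and TUBB6 were 1.15 and 1.13. PDAP1, YBX1, TBL1X and DNTTIP2 had small differences, from 0.38 to 0.48.

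The 3 genes that were lower had modest differences. PDCD4, which restrains translation initiation, was at 189.9, 245, 272 and 274 CPM against 146, 169, 186, 184 and 137 CPM. The 4 muscle-poor values were above all muscle-rich ones, with a log2 difference of -0.57 (SE 0.17, limma adjusted p = 0.746). DESeq2 gave PDCD4 an adjusted p of 0.00673, but its difference was under the size set for a call. SAT1, the enzyme that starts the breakdown of spermidine, had -0.77 (SE 0.31) and OSTF1 -0.40 (SE 0.17).

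**Figure D3:**
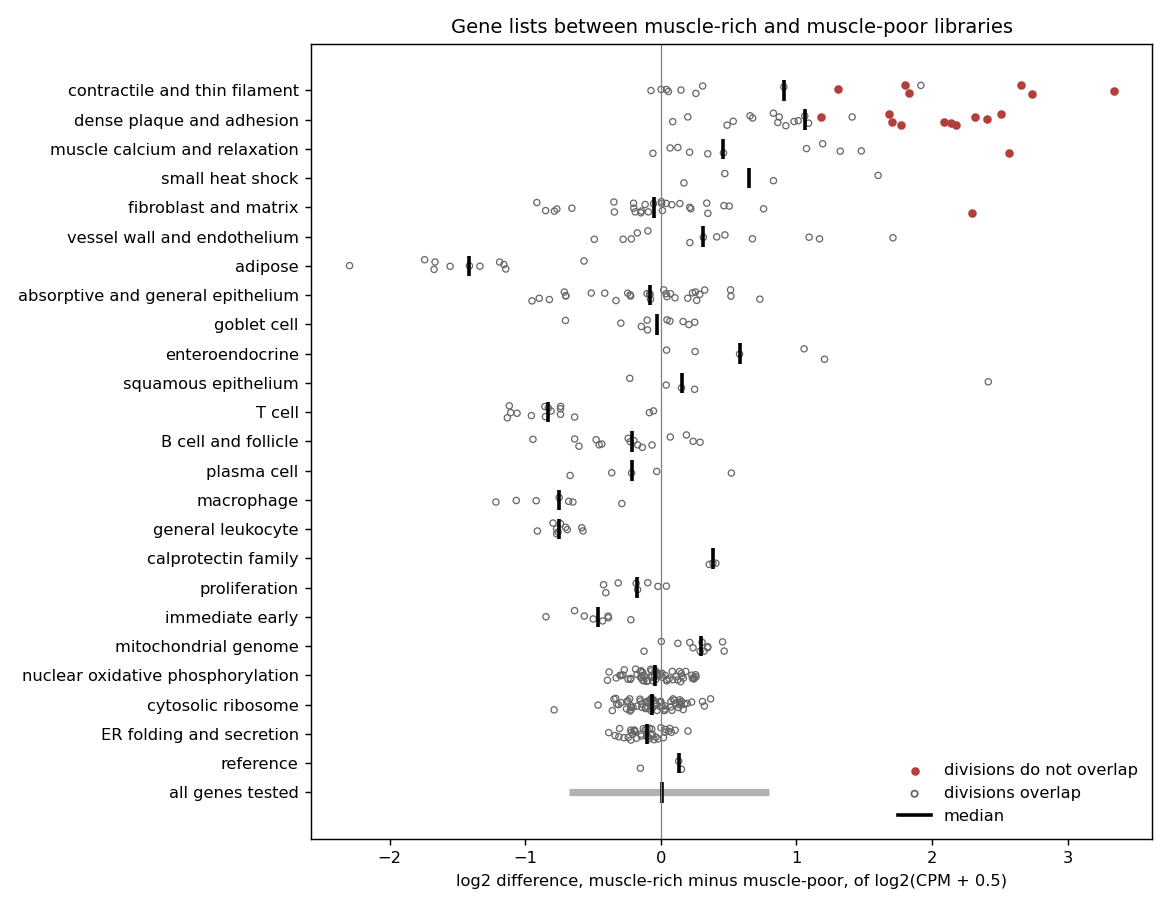
The log2 difference (muscle-rich minus muscle-poor, on log2(CPM + 0.5)) of each tested gene of 24 lists, with filled points where the sides did not overlap and a bar at each list's median. For all genes tested the grey line spans the 5th to the 95th percentile, -0.68 to 0.80, around a median of 0.01. Filled points lie in the muscle lists and at POSTN.

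Fibroblast and matrix genes had no common direction between the sides. The fibroblast and matrix list held 29 tested genes with a median log2 difference of -0.05 and 14 of 29 above 0. The median was 0.54 without steer 274 and -0.52 without steer 287. COL1A1, a chain of type I collagen, was at 6109.7, 364, 2145 and 784 CPM in the muscle-poor and 940.3, 1137, 843, 923 and 4185 CPM in the muscle-rich libraries. The highest values were in steers 274 and 294, the 2 ends of the score, and 21 of the 29 genes had their highest value in steer 274 and 7 in steer 294. The exception was POSTN, periostin, a secreted matrix protein, at 26.6, 237, 89.5 and 303 CPM against 327, 386, 574, 905 and 864 CPM. It had its lowest value in steer 274, where the collagens were high, with a log2 difference of 2.29 (SE 0.67) and a slope of 1.504 per SD of the score (limma adjusted p = 0.00636).

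The list of vessel wall and endothelium held 13 tested genes. None was without overlap, where 1.61% of all genes were above and 0.305% below without overlap. The median log2 difference of the list was 0.31. This median was 0.03 without steer 287, 0.11 without steer 294 and 0.48 without steer 108. SPARCL1, a matrix protein of vessels and stroma, rose with the score by 1.11 per SD (limma adjusted p = 0.00822) and was at 224, 853, 382 and 1093 CPM against 1055, 1400.0, 1604, 2182 and 3123 CPM. Its sides overlapped only because steer 310 was above steer 108. RGS5, a marker of pericytes, was at 66.5, 946, 144 and 751 CPM against 725, 859, 576, 851 and 376 CPM and was lowest in steers 274 and 242.

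None of the 11 adipose genes tested was without overlap, but only 0.305% of all genes had every muscle-rich library below. All 11 were lower in the muscle-rich libraries on average, with a median log2 difference of -1.41. This rested largely on steer 274, which had the highest value in 10 of the 11 genes, and without that library the median was -0.57. SCD, the desaturase of fatty acid synthesis, was at 5159, 241, 524 and 297 CPM against 271, 269, 151, 135 and 393 CPM. FASN, fatty acid synthase, was at 5216, 337, 798 and 398 CPM against 364, 145, 275, 197 and 509 CPM. LPL, lipoprotein lipase, was at 2124, 25.5, 557 and 38.9 CPM against 42.4, 43.6, 171, 16.3 and 312 CPM, with steer 242 next to steer 274. The part of fat in the low muscle score of steer 274 was not tested.

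In the epithelial lists the libraries within each side were far apart. The 30 absorptive and general epithelial genes had a median of -0.08, the 10 goblet cell genes -0.03, the 5 enteroendocrine genes 0.58 and the 5 squamous genes 0.15. None of these signs held when each library was left out in turn. Without steer 294 the medians were 1.02, 1.13, 1.46 and 0.99, and without steer 274 they were -0.46, -0.65, -0.11 and -0.15. EPCAM, an adhesion molecule of epithelial cells, was at 115, 1136, 92.2 and 1171 CPM against 817, 1195, 951, 572 and 11.3 CPM. AGR2, a chaperone of mucin secretion in goblet cells, was at 144, 5738, 395 and 5129 CPM against 4133, 3818, 3348, 832 and 30.2 CPM. Epithelial RNA was low in steers 274 and 242 on the muscle-poor side and lowest in steer 294 on the muscle-rich side, where 29 of the 30 absorptive and all 10 goblet genes had their minimum. Within NS the mean of the absorptive list was 2.99 log2 units higher in the 3 muscle-rich libraries than in steer 242, and within SS it was 2.76 lower in the 2 muscle-rich than in the 3 muscle-poor libraries. An interaction term in limma for this difference between SS and NS called 1 of 15400 genes (0.00649%), which was not among the 30 (lowest adjusted p = 0.173). The NS muscle-poor arm of that fit is steer 242 alone, assumed to vary like the other groups, so the fit cannot tell that steer from its group.

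EVPL, envoplakin, which the squamous list holds as a part of the cornified envelope, stood apart from that list. It was at 2.96, 2.20, 2.91 and 11.7 CPM against 8.88, 9.68, 13.2, 51.0 and 110.4 CPM and rose with the score by 1.60 per SD (limma adjusted p = 0.0295), while its sides overlapped at steers 310, 108 and 152. COL17A1 of the same list, a collagen of the epithelial anchor, was at 14.4, 11.7, 17.6 and 19.96 CPM against 47.5, 51.7, 82.9, 4.08 and 0.801 CPM and was lowest in steer 294, where EVPL was highest.

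**Figure D4:**
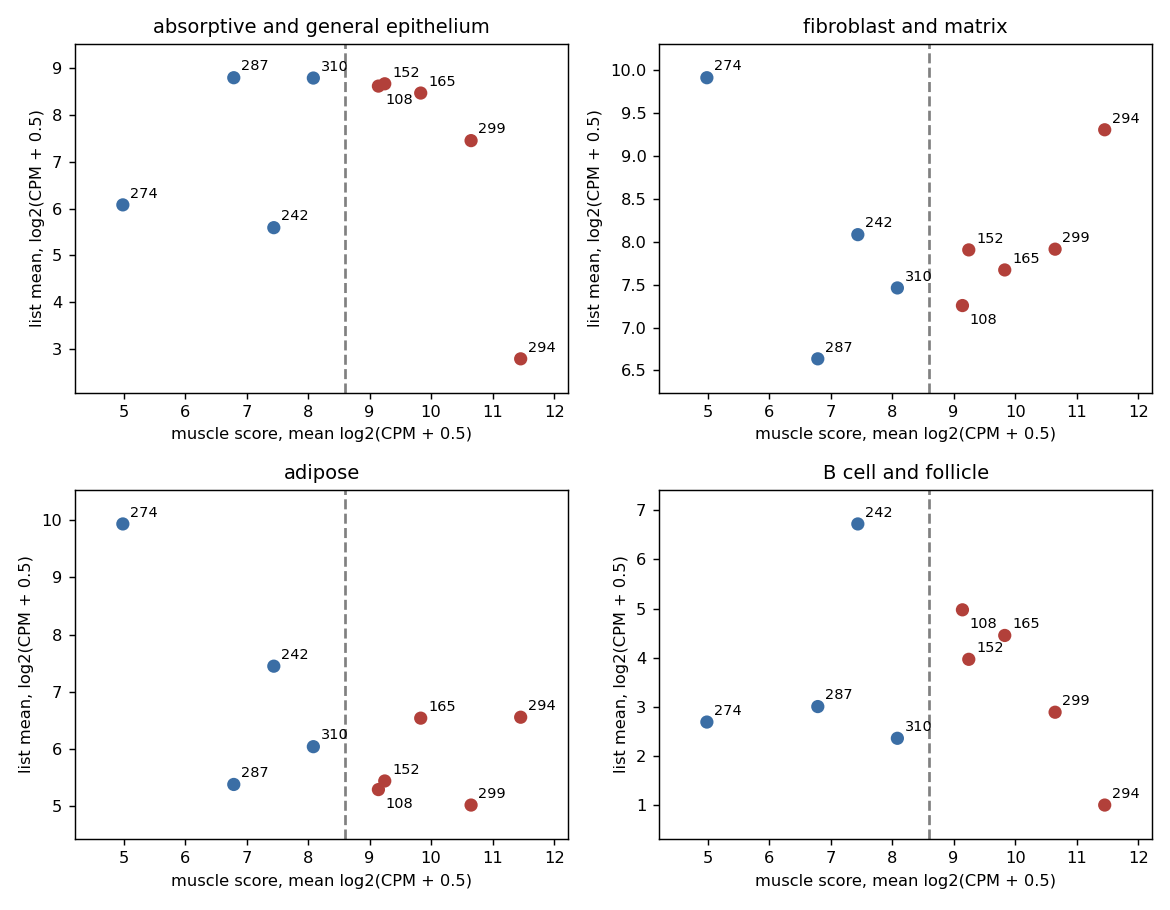
Mean log2(CPM + 0.5) of 4 lists (absorptive epithelium, fibroblast and matrix, adipose, B cell and follicle) against the muscle score, 1 point per library, blue for muscle-poor and red for muscle-rich, labelled by steer. SS 274 stands high for fibroblast (9.91) and adipose (9.93) genes, NS 242 for B cell genes (6.72), and SS 294 low for epithelium (2.79) and B cell genes (1.004).

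The lists of T cells, B cells, plasma cells, macrophages and general leukocytes had medians below 0. No gene of them was without overlap, but only 0.305% of all genes had every muscle-rich library below. The median log2 difference was -0.83 for 15 T cell genes, all below 0, and -0.21 for 16 genes of B cells and follicles. It was -0.22 for 5 plasma cell genes, -0.75 for 7 macrophage genes and -0.75 for 10 general leukocyte genes. PTPRC, the CD45 phosphatase of leukocytes, was at 238, 279, 1344 and 208 CPM against 309, 249, 259, 305 and 78.1 CPM. Steer 242 had the highest and steer 294 the lowest value, and the remaining 7 libraries lay between 208 and 309 CPM. MS4A1, the B cell antigen CD20, was at 14.6, 14.1, 206 and 4.43 CPM against 68.0, 31.3, 51.7, 13.8 and 0.801 CPM, high in steer 242 and next in steers 108 and 165. Without steer 242 the median of the T cell list was -0.08, that of the leukocyte list -0.14, and that of the B cell list 0.66. Without steer 294 they were -0.26, -0.33 and 0.30, so the sign of the B cell list turned without either library. The plasma cell median was 0.05 without steer 294 and -0.72 without steer 274, and the T cell median was -1.26 without steer 274. With phenotype as a covariate the medians were -1.62 for T cells, -1.35 for B cells and -1.26 for general leukocytes. They were then -0.95 for macrophages and -0.32 for plasma cells. C1QC, a complement chain made by macrophages, had a log2 difference of -1.22 (SE 0.39, limma adjusted p = 0.803), at 243, 93.3, 224 and 64.2 CPM against 60.2, 66.3, 66.9, 55.2 and 42.98 CPM, and here both steers 274 and 242 were high.

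The calprotectin family of neutrophil and myeloid genes (3 genes, median 0.38) had its highest list mean in steer 152, at 7.70, and its median moved widely. It was -0.86 without that library, 1.29 without steer 242, 1.01 without steer 294, 2.69 with DESeq2 and -0.62 with phenotype as a covariate. S100A12 was at 7.95, 15.2, 28.0 and 27.9 CPM against 24.3, 677, 9.85, 15.8 and 1.87 CPM, with steer 152 far above the others. The 8 proliferation genes had a median of -0.18 (0.04 without steer 242 or without steer 294), and the 8 immediate early genes had -0.46, all below 0. FOS, an immediate early transcription factor, was at 721, 40.3, 256 and 20.9 CPM against 30.3, 116, 191, 17.7 and 76.7 CPM, and 6 of the 8 genes were highest in steer 274. Without steer 274 the median of the immediate early list was 0.03.

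The medians of the housekeeping groups lay within 0.30 of 0. The median was 0.30 for 12 genes of the mitochondrial genome, -0.04 for 59 nuclear genes of oxidative phosphorylation, -0.06 for 70 cytosolic ribosomal protein genes and -0.10 for 38 genes of folding and secretion in the endoplasmic reticulum. Reads on mitochondrial genes were 5.77, 3.65, 1.75 and 2.61% of the total in the muscle-poor and 4.04, 4.39, 3.31, 4.30 and 2.47% in the muscle-rich libraries. These ranges overlapped. The mitochondrial median was 0.0032 without steer 242 and 0.61 without steer 274, and it was -0.02 with DESeq2 and -0.01 with edgeR. The medians of the other 3 groups were also turned in sign by leaving out single libraries, steer 294 among them. The 3 reference genes ACTB, GAPDH and RPLP0 had differences of 0.13, 0.15 and -0.15. Single libraries again stood out, with steer 242 highest in 68 and steer 274 lowest in 58 of the 70 ribosomal genes.

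**Figure D5:**
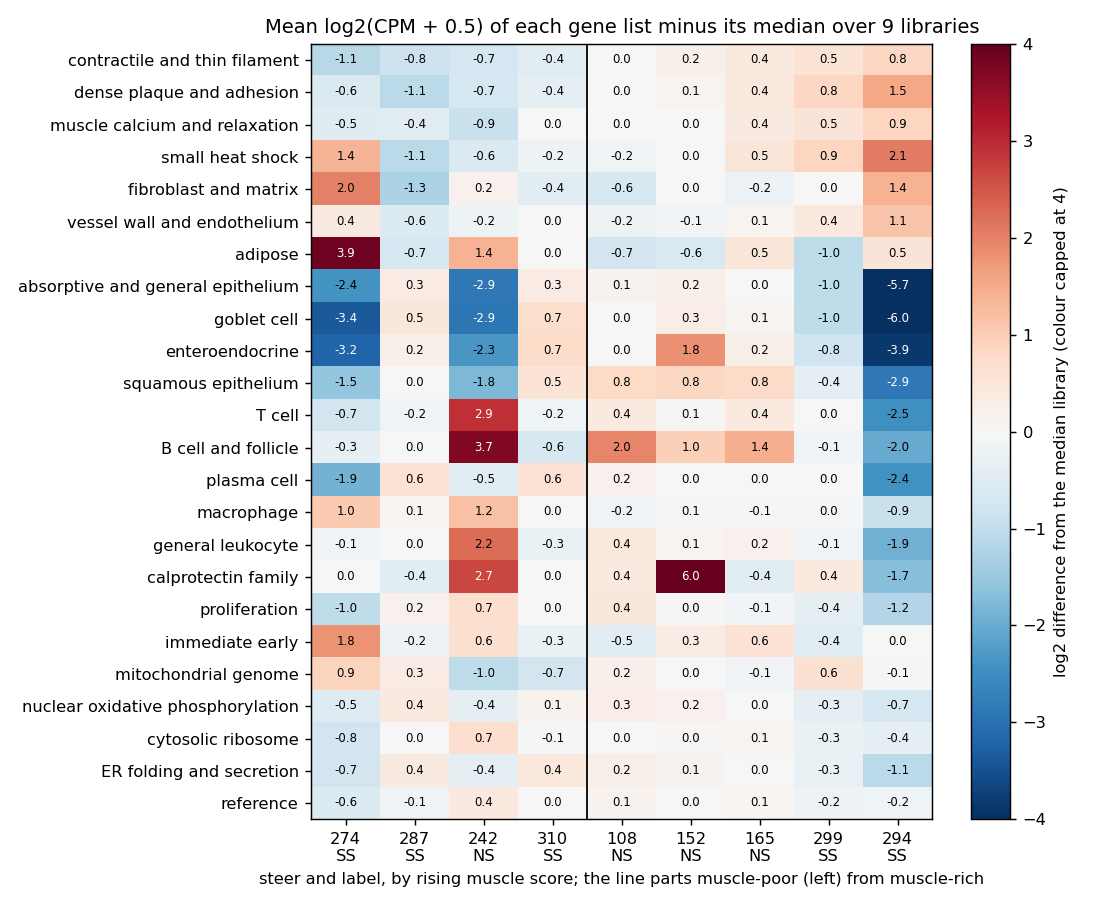
Mean log2(CPM + 0.5) of 24 lists in each library minus the median of that list over the 9 libraries, in the order of the score. The first 2 rows are below 0 in all muscle-poor libraries and at 0 or above in the muscle-rich ones, and the strongest values elsewhere belong to single libraries, such as adipose genes in SS 274, lymphocyte genes in NS 242 and calprotectin genes in NS 152.

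The means of the lists set the 2 sides side by side. The contractile list averaged 7.09 ± 0.28 (SD, n = 4) log2 units in the muscle-poor and 8.24 ± 0.32 (SD, n = 5) in the muscle-rich libraries, and the dense plaque list 7.22 ± 0.31 and 8.49 ± 0.63. In these 2 of 24 lists the sides did not overlap. The muscle-poor libraries were unlike each other in what else they held. Steer 274 had list means of 9.91 for fibroblast and 9.93 for adipose genes, against 6.64 to 8.08 and 5.38 to 7.45 in the other muscle-poor libraries. Steer 242 had 7.05 for T cell and 6.72 for B cell genes, against 3.41 to 3.99 and 2.36 to 3.01. Steers 287 and 310 had 8.79 and 8.78 for the absorptive epithelium, close to the 8.61, 8.66 and 8.46 of the muscle-rich steers 108, 152 and 165. The muscle score of these 5 libraries ran from 6.79 to 9.83. Steer 299 had 7.45 and steer 294 had 2.79 for the epithelium.

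Within the labelled groups the muscle lists kept their sign. The contractile mean was 0.88 higher on the muscle-rich side in NS (3 libraries against 1) and 1.46 higher in SS (2 against 3), and the dense plaque mean was 0.89 and 1.86 higher.

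The comparison of the study, SS against NS, was then fitted with the muscle score as a covariate. The score itself averaged 8.92 ± 1.03 over the NS libraries (SD, n = 4) and 8.39 ± 2.68 over the SS libraries (SD, n = 5). With the score as a term limma called 0 of 15400 genes, and 921 had an unadjusted p under 0.05 (180 higher and 741 lower in SS). Without the score it called 0, with 611 at that level (55 higher and 556 lower). Where SS and NS do not differ, a share of 0.05 of all genes would reach that level. For the contractile list the median SS minus NS log2 difference was -0.01 without and 0.12 with the score, against 0.14 and 0.30 for the dense plaque list, 0.20 and 0.31 for the calcium list and 0.55 and 0.70 for the small heat shock list, and none of these genes was called. The 16 genes of B cells and follicles, some of which the study picked from these steers, had a median log2 difference of SS from NS of -2.55 without and -2.66 with the score. The lowest adjusted p among them with the score was 0.288 (limma). Over all genes tested the median was -0.13 in both fits.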

How the data were processed

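Whole rectal tissue of 9 steers was sequenced. The authors mapped stranded reads with Tophat2 to UMD3.1 and deposited CPM per gene, and the submitters' processing notes also name HTSeq and edgeR, with no role given. In every library 100% of the deposited CPM values came out as whole reads within a tolerance of 0.01 reads, and the recovered counts ran from 5412523 to 12278503 per library. Names of 2052 of the 24616 identifiers came from lists given with the study, which favour abundant genes and genes that it picked on these steers.

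The division, its 10 genes and all lists were chosen with earlier results of these data known. Genes that reached 0.5 CPM in 4 or more libraries were tested with limma 3.58.1 (R 4.3.3), with an intensity trend on log2(CPM + 0.5) and Benjamini-Hochberg adjustment over all of them, without the score genes. A difference on this scale understates the change of low genes. The recovered counts went to edgeR 4.0.16 and DESeq2 1.42.0, as alternatives. Python 3.11.15 with numpy 2.4.6, pandas 2.3.3 and matplotlib 3.10.9 made the tables and plots, and the scripts were tested on simulated data. Named genes were the score genes, up to 4 members of each list by mean CPM with its largest rise and fall, and up to 10 genes outside the lists in each direction, by size among those called or, where too few were called, without overlap. DSTN, CALD1, MYL9, MUSTN1, KCNMA1 and the dense plaque genes given by their difference alone were named after their values were seen, to account for counts. The list of enteric nerve, glia and pacemaker genes had no identifier and was not analysed here. Alternatives were other pseudocounts, filters, scalings, tools and covariates, and each library left out in turn. Leaving out the libraries of lowest and highest score together was chosen after seeing the data. The sources used here give no sequencing batch.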

Additional observations from a re-analysis of the deposited data

Results flagged for a closer look

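In 11 of 48 tests of list means within a side, 1 library stood apart from the others by Dixon's test. Chance flags about 1 in 20 independent groups, but these tests reuse the same 9 libraries over lists that are not independent, so their number is not compared with chance. Steer 294 was the low library of the muscle-rich side in 6 lists. Its mean log2(CPM + 0.5) was 2.79 for the absorptive epithelium (7.45 to 8.66 in the other muscle-rich libraries), 2.72 for goblet cells (7.67 to 8.96), 1.69 for T cells (4.15 to 4.55), 4.85 for plasma cells (7.27 to 7.43), 5.56 for macrophages (6.27 to 6.499) and 4.63 for general leukocytes (6.41 to 6.97). Steer 242 was the high library of the muscle-poor side in 4 lists, at 7.05 for T cells (3.41 to 3.99 in the others), 6.72 for B cells and follicles (2.36 to 3.01), 8.78 for general leukocytes (6.28 to 6.55) and 4.34 for the calprotectin family (1.25 to 1.68). Steer 152 was the high library of the muscle-rich side for the calprotectin family, at 7.70 (-0.02 to 2.06 in the others).

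The difference between the sides was itself compared between SS and NS in a limma fit with an interaction term. It called 1 gene, ENSBTAG00000021158, which has no symbol and is named because the test called it. The log2 difference of muscle-rich from muscle-poor was -2.38 in NS and 1.46 in SS, so the interaction was 3.84 (limma adjusted p = 0.0431). The gene was at 287 CPM in steer 242, the only muscle-poor NS library, and from 26.6 to 85.4 CPM in the others, so the call rests on that library.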

How the results depend on the processing

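The count of 0 genes called between the sides became 102 with DESeq2, 111 with the score as a continuous term and 3 with array weights. It was 0 under every other alternative run, and when each library was left out the range was 0 to 0, with 456 (without steer 299) to 880 (without steer 310) genes at an unadjusted p below 0.05. As above, a share of 0.05 of all genes tested would reach that level with no difference. With the score as covariate, SS against NS gave 0 to 1 calls when each library was left out, with 1 call without steer 108.

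The number of genes with every muscle-rich library above was 248, and it became 584 without steer 310, 558 without steer 242, 445 without steer 108, 427 without steer 274 and 272 to 352 without any other. The number with every one below was 47, and it became 231 without steer 274, 190 without steer 287 and at least 70 without any other. A comparison of fewer libraries is easier to pass. In the muscle lists the number was 17 to 25 of 55. Without the libraries of lowest and highest score together, chosen after seeing the data, it was 496 (3.22%) above and 265 (1.72%) below, with 25 of 55 muscle genes above.

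List medians were not computed for the other filters, array weights or the continuous score. In all remaining alternatives the median log2 difference was above 0 for the contractile (0.62 to 1.08), dense plaque (0.83 to 1.38), calcium (0.37 to 0.62), small heat shock (0.28 to 1.12) and vessel lists (0.03 to 0.50). It was below 0 in all for the adipose (-2.60 to -0.57), T cell (-1.62 to -0.08), macrophage (-0.98 to -0.38) and general leukocyte lists (-1.26 to -0.14). The other lists changed sign at least once, among them the absorptive epithelium (-0.62 to 1.02, the highest without steer 294), the fibroblast list (-0.52 to 0.54), the calprotectin family (-0.86 to 2.69) and the B cell list (-1.35 to 0.66). The cause of these shifts was not tested. No paired analysis was possible because the labels do not tie steers to pens, and the groups share no replicate number.

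At the depth of steer 274, the shallowest library, genes near 0.554 CPM cannot be told from 0. The sides hold 5 and 4 libraries and partly follow the labels, with 1 muscle-poor NS library, so muscle and label are separated by few steers. No histology was used here, and the depth of each biopsy in the wall was not analysed here.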
